A study of Mus musculus with 4 samples.

Results

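Keratins are the intermediate filament proteins of epithelial cells, and 10 of them were followed here in libraries labelled as distal colon from a mouse study of Usp25, a deubiquitinating enzyme. The members are the genes Krt4, Krt5, Krt7, Krt8, Krt14, Krt15, Krt17, Krt18, Krt19 and Krt20, chosen by symbol as keratins of simple, basal and squamous epithelia. All 10 were among the 24421 genes listed, and 42 further rows with a keratin symbol served for comparison. Poly(A) RNA came from 4 mice on a C57BL/6 background, 2 Usp25+/+ (animals 139 and 140) and 2 Usp25-/- (animals 826 and 850). The labels give female sex, an age of 8 weeks, and 2.5% dextran sulfate sodium (DSS), which injures the colon lining, in the drinking water over 5 days, with regular water on the following 2 days. Untreated mice were not analysed here, and the sources used here do not say which part of Usp25 was removed.

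A keratin filament is built from a type I and a type II keratin in equal amounts, so that each epithelium expresses matched partners. Krt8 (type II) and Krt18 (type I) form the filament of single-layered epithelia, and Krt7 (type II) and Krt19 (type I) join them in ducts, airways and lung. Krt20 (type I) is known from the surface cells of stomach and intestine and from the bladder lining. Krt5 (type II) and Krt14 (type I) define the basal layer of stratified and airway epithelium, Krt15 is a type I keratin of basal cells, and Krt17 is a type I keratin induced in injured epidermis. Krt4 (type II) is the partner of Krt13 in the upper layers of squamous linings such as the oesophagus. In the injured mouse lung, a high Krt8 level is known from cells passing from the alveolar type 2 to the type 1 state, and Krt5 from basal-like cells that spread after severe damage.

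Values are FPKM, in which fragments are counted per kilobase of transcript and set relative to all mapped fragments of the library, which allows levels of different genes to be set side by side. The values carry no read depth, so no counting error can be given, and a value of 0 is reported as listed at 0. Usp25 itself stood at 38.5 FPKM in 139 and 16.6 in 140, against 2.65 in 826 and 1.71 in 850. The labelled tissue and sex were not borne out by their defining genes. The colon markers Cdx2, Muc2 and Slc26a3 did not exceed 0.279 FPKM in any library, while the lung genes Sftpc (339 to 2596 FPKM) and Nkx2-1 (6.70 to 13.7 FPKM) were present in all 4. The Y-linked gene Ddx3y was at 12.7 to 30.3 FPKM and Xist at most at 0.110 FPKM. The keratins are therefore described for the libraries by genotype and not as those of colon. Animal 139 stood apart from the others by neutrophil genes (12 of 12 listed genes highest there, where 29.9% of tested genes were). Genes of the gastric surface were mostly highest in 826 (8 of 9 tested genes, where 25.4% of all tested genes were). Their summed FPKM was 2903 in 826 and 1130 in 850, mostly from Tff1, both above the 148 and 177 of Usp25+/+. The keratin results and most of the lists set beside them are given also without the library they rest on. In tissue RNA, fewer cells of a type and less RNA per cell cannot be told apart.

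**Figure D1:**
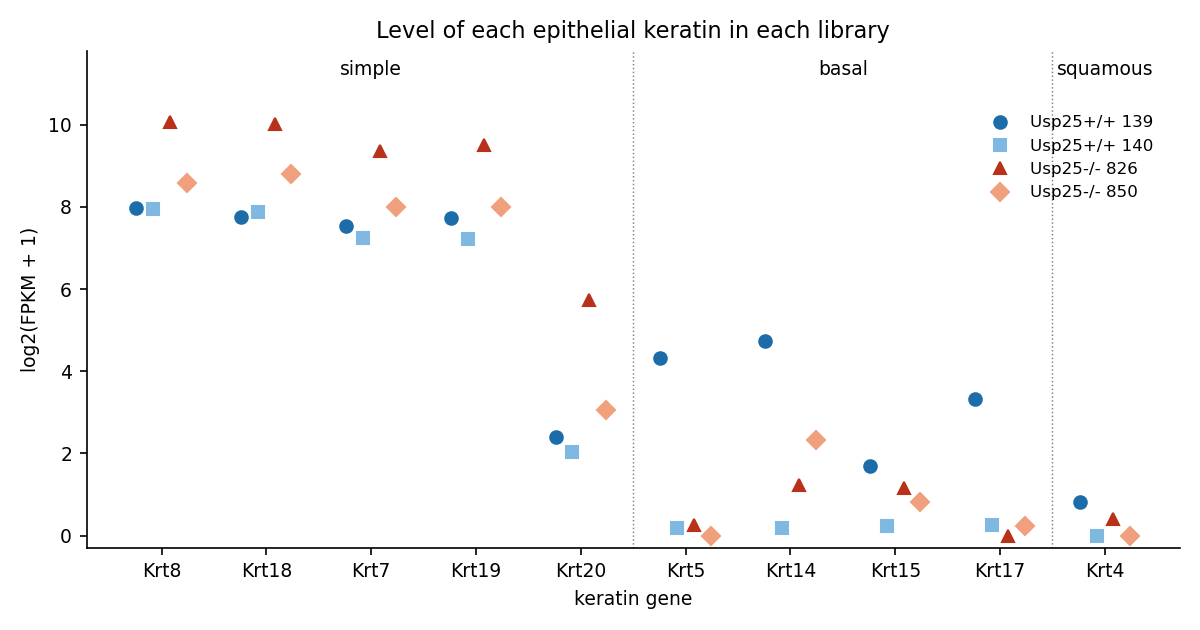
Level of each of the 10 keratins in each library as log2(FPKM + 1), with 1 point per animal and dotted lines between the simple, basal and squamous members. The simple keratins were highest in animal 826 and second highest in 850, and the basal keratins were highest in 139.

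The simple keratins stood higher in both Usp25-/- libraries than in both Usp25+/+ libraries, and none passed the test. The Krt8 level was 252 FPKM in 139 and 247 in 140, both Usp25+/+, against 1067 in 826 and 382 in 850, both Usp25-/-. The Usp25+/+ libraries lay close together, while 826 was 2.79 times as high as 850. The mean was 249 ± 3.41 FPKM in Usp25+/+ and 724 ± 484 FPKM in Usp25-/- (SD, n = 2 in each), which on log2(FPKM + 1) is a log2 fold change of 1.35 with an SE of 0.57, and the limma adjusted p over 12011 genes was 0.960. Krt18, its partner, was listed at 215 and 233 against 1030 and 444 FPKM. Its log2 fold change of 1.59 (SE 0.50) had the smallest unadjusted limma p of the members, 0.0235, with an adjusted p of 0.960. The order of the libraries was the same in both partners at the upper end, with 826 first and 850 second.

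Krt7 and Krt19 were lower in level than Krt8 and Krt18 in each library, and again highest in 826 and second highest in 850. The Krt7 level was 183 FPKM in 139 and 150 in 140 against 652 in 826 and 252 in 850, with a log2 fold change of 1.29 (SE 0.54). Krt19 was listed at 211 and 149 against 727 and 252 FPKM, with a log2 fold change of 1.27 (SE 0.59). In both genes 850 lay closer to 139 than to 826. Krt20 was the rarest simple keratin and had the widest difference, from 4.31 FPKM in 139 and 3.11 in 140 to 52.4 in 826 and 7.35 in 850. Its value in 826 was 7.12 times that in 850, and its log2 fold change was 2.18 (SE 0.88), with the same limma adjusted p of 0.960. Among all 24421 genes, Krt8 ranked 322nd, 305th, 63rd and 186th in 139, 140, 826 and 850, while Krt20 ranked between 1414th and 9111th.

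In all, 9 of the 10 members averaged 1 FPKM or more and entered the limma fit across genes, and 0 of them passed an adjusted p of 0.05, where 0% of all tested genes did. At an unadjusted limma p of 0.05, 1 member (Krt18) was past the threshold, against 3.12% of tested genes. The 2 genotypes did not overlap in 5 members that were higher in Usp25-/-, the simple keratins, where 19.0% of tested genes did so. Each of these 5 was above 3 FPKM in every library, so that none entered through a high group alone. The median log2 fold change was 1.35 over the 5 simple keratins and 0.03 over all tested genes. With 2 libraries a genotype, an exact permutation test of a single value cannot give a p below 0.33.

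The size of the difference rested on animal 826. Without it the log2 fold changes were 0.61 for Krt8, 0.99 for Krt18, 0.61 for Krt7, 0.51 for Krt19 and 0.84 for Krt20. Without 850 they were 2.09, 2.20, 1.97, 2.03 and 3.51 in the same order. Leaving out animal 139 or 140 moved the 5 values to between 1.02 and 2.36. The direction of the simple keratins was the same whichever library was left out, with Krt8 in 850 at 1.55 times its level in 140. The summed FPKM of the 5 simple keratins was 865, 781, 3528 and 1338 in 139, 140, 826 and 850, a difference in the mean log2 sum of 1.40 (two-sided exact permutation p = 0.33, the smallest this design allows). Without 826 this difference was 0.70.

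**Figure D2:**
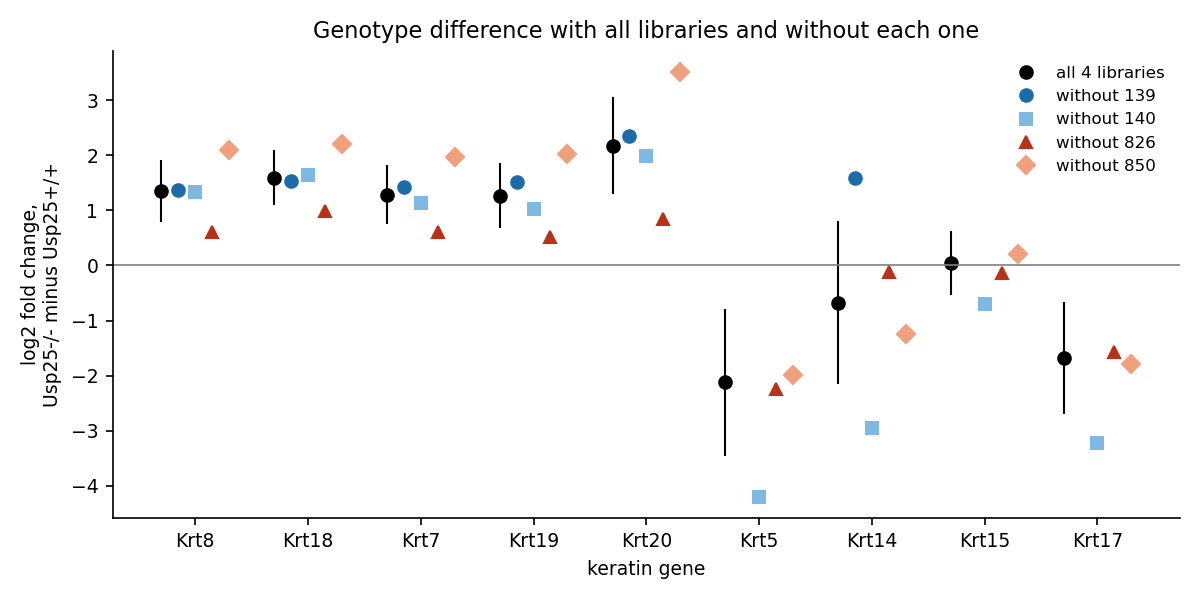
Log2 fold change of each tested keratin on log2(FPKM + 1), Usp25-/- minus Usp25+/+, with all 4 libraries (black, bars are the limma SE) and without each library in turn. The 5 simple keratins stayed above 0 in every setting shown, while Krt14 and Krt15 changed sign, and Krt5, Krt15 and Krt17 have no value without 139 because their mean was then under 1 FPKM.

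The type II and type I simple keratins stayed close to equal in level in every library. Krt7 and Krt8 together were at 435, 397, 1718 and 634 FPKM, and Krt18, Krt19 and Krt20 together at 430, 384, 1810 and 704 FPKM in 139, 140, 826 and 850. The ratio of type II to type I was 1.01 and 1.03 in Usp25+/+ and 0.950 and 0.901 in Usp25-/-. The sums thus ran from 397 to 1718 and from 384 to 1810 FPKM, while their ratio stayed between 0.901 and 1.03. With Krt23, a type I keratin outside the members, added to the type I sum, the ratio was 0.963, 0.989, 0.905 and 0.856. Within the pairs, Krt8 over Krt18 was 1.17, 1.06, 1.04 and 0.860, and Krt7 over Krt19 was 0.869, 1.01, 0.896 and 1.00. The Krt19 to Krt18 ratio varied more, from 0.982 in 139 to 0.568 in 850. Krt20 amounted to 0.0171, 0.0126, 0.0491 and 0.0192 of the Krt8 level, so that its share was highest in 826.

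**Figure D3:**
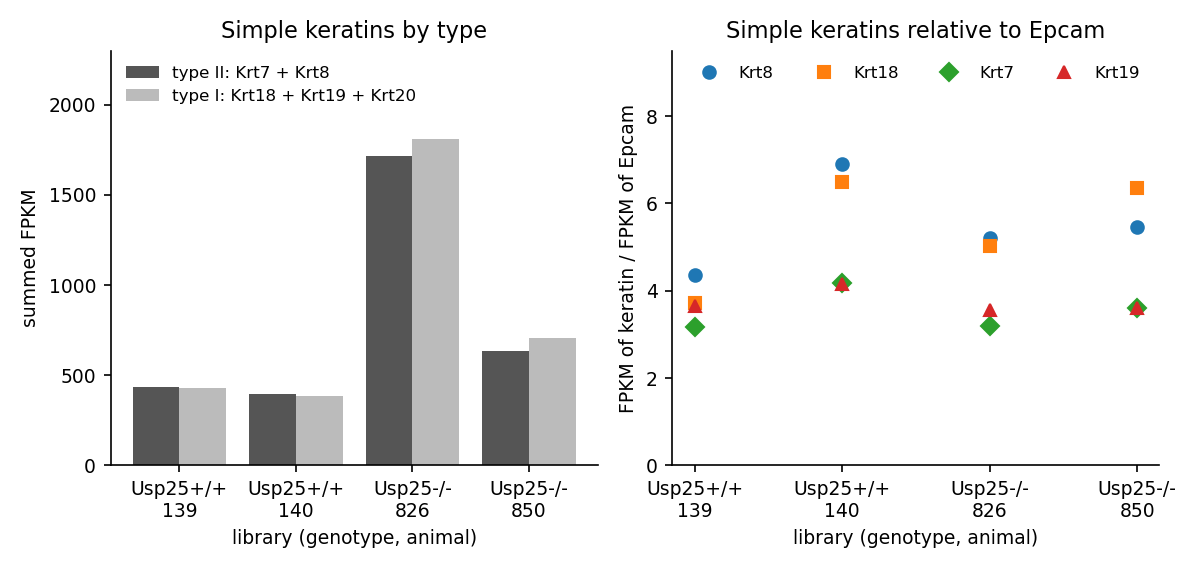
Left, summed FPKM of the type II (dark) and type I (light) simple keratins in each library, which were near equal in all 4. Right, FPKM of Krt8, Krt18, Krt7 and Krt19 divided by that of Epcam in the same library, where the genotypes overlap for Krt8, Krt18 and Krt7.

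Genes shared by most epithelia stood mostly highest in 826, as the simple keratins did. Of 15 tested general epithelial genes, 15 had a positive log2 fold change, with a median of 0.71, and 0 passed the adjusted limma test. At an unadjusted p of 0.05 there were 3 (3.12% of all tested genes), and 9 were higher in Usp25-/- without overlap (19.0% of all tested genes). Without 826, 12 of the 15 were above 0, with a median of 0.41. Highest in 826 were 14 of the 15, where 25.4% of all tested genes were, and Ehf was highest in 139. Epcam, an adhesion protein of epithelial cells, was listed at 57.8 and 35.8 against 205 and 69.9 FPKM. Per unit of Epcam, Krt8 stood at 4.36 and 6.91 in Usp25+/+ and at 5.21 and 5.46 in Usp25-/-, so that both Usp25-/- values lay between the Usp25+/+ values. The log2 difference of that ratio was -0.04 (two-sided exact permutation p = 1.00), against 1.35 for Krt8 itself. It was -0.10 for Krt7, 0.20 for Krt18 and -0.12 for Krt19. Measured against the mean of all 15 genes, the simple keratins were higher by 2.52 and 2.69 log2 units in Usp25+/+ and by 3.59 and 2.94 in Usp25-/-, a difference of 0.66 (exact permutation p = 0.33), or 0.33 without 826. Cldn7, Elf3, Epcam and Spint2 were the 4 general epithelial genes with the largest log2 fold changes, at 1.63 (SE 0.50), 1.45 (SE 0.63), 1.38 (SE 0.60) and 1.36 (SE 0.46). How far the epithelial share of the RNA accounts for the keratin difference was not tested.

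The desmosome and hemidesmosome genes, whose products tie keratin filaments to the membrane, differed less. Of 14 tested, 11 lay above and 3 below 0 in log2 fold change, and their median was 0.36. None passed limma, adjusted or at an unadjusted p of 0.05. The genotypes did not overlap in 3 higher genes (19.0% of all tested genes) and in 1 lower gene (14.7%). The median was 0.05 without 826 and 0.73 without 139. Itga6, the laminin receptor subunit of hemidesmosomes, was listed at 12.1 and 12.0 against 26.6 and 17.8 FPKM, with Itgb4 at 3.74 and 1.82 against 7.24 and 3.51 FPKM. Pkp3, a desmosomal plaque protein, was listed at 4.67 and 4.74 against 11.4 and 6.10 FPKM. Dsc2, a desmosomal cadherin, went the other way through animal 139, at 4.68 and 0 against 0.120 and 0.204 FPKM, and was under the filter without it. Dsp, which links keratins to the plaque, was at 5.42 and 1.97 against 6.58 and 3.43 FPKM and overlapped.

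Markers of the cell types that carry simple keratins did not move as a block. The alveolar type 2 list had a median log2 fold change of 0.23 over 10 tested genes, and the alveolar type 1 list 0.15 over 7. Above 0 were 8 of the 10 and 4 of the 7 genes. The genotypes did not overlap in 4 and 2 higher genes (19.0% of all tested genes). Without 826 the medians were 0.41 and 0.45, and 10 of the 10 type 2 and 5 of the 7 type 1 genes lay above 0. In these lists 3 of 10 and 2 of 7 genes were highest in 826. The summed FPKM of the type 1 list was 216 and 355 in Usp25+/+ and 368 and 374 in Usp25-/-. Club cell genes had a median of -0.53 over 8 tested genes and ciliated cell genes of -0.04 over 5, and 0 genes of either list were highest in 826. The club cell median was -0.16 without 139, and the ciliated cell median was -0.68 without it and 0.46 without 826. The gastric surface genes had a median of 2.77 over 9 tested genes, and 8 of the 9 were highest in 826. Without 826 the median was 2.32 over 7 tested genes. Their summed FPKM was 148 and 177 in Usp25+/+ and 2903 and 1130 in Usp25-/-. Most of the Usp25-/- sums came from Tff1, at 71.3 and 105 against 1848 and 759 FPKM. Tff2 was lowest in 826 and highest in 850, at 20.3 and 24.1 against 17.0 and 95.0 FPKM. Gkn3, listed at 0 in both Usp25+/+ libraries, passed the filter through Usp25-/-, so that its higher mean there followed from the filter. Gkn2, a gastrokine secreted by the stomach surface, stood at 33.6 and 26.8 against 645 and 154 FPKM, with 826 and 850 in the same order as in Krt20. Muc5ac, the secreted mucin that defines those surface cells, did not exceed 0.504 FPKM. Of 13 colon epithelial genes found, 3 were tested. Among them were Lgals4, a galectin of the gut lining, at 7.04 and 9.83 against 70.6 and 28.8 FPKM, and Guca2a, the peptide guanylin, at 0.341 and 0.868 against 16.6 and 3.89 FPKM. Lgals4 and Guca2a had log2 fold changes of 2.31 and 2.55, or 1.68 and 1.63 without 826. Guca2a was under 1 FPKM in both Usp25+/+ libraries and passed the filter through Usp25-/-, so that its higher mean there followed from the filter. The remaining tested gene, Car4, was the most abundant and differed little, at 193 and 399 against 277 and 367 FPKM (log2 fold change 0.20). The list of urothelial and mesothelial genes held Msln at 46.3 and 32.4 against 138 and 74.1 FPKM. Its log2 fold change was 1.36, or 0.92 without 826. The other tested genes of that list were highest in 850. These were Upk1b, at 3.19 and 0.723 against 1.95 and 6.52 FPKM, and Upk3b, at 0.864 and 1.44 against 1.43 and 5.40 FPKM. The bladder genes Upk2 and Upk3a were listed at 0 in all 4 libraries. The part of these cell types in the keratin levels was not tested.

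Genes known beside Krt8 in the alveolar transitional state were mostly highest in 826. Of the 10 listed, all were tested and 7 had a positive log2 fold change, with a median of 0.86, or 0.24 without 826. Without overlap 4 were higher, where 19.0% of all tested genes were, and 8 were highest in 826, where 25.4% were. Sfn, a 14-3-3 protein of epithelial cells, was listed at 52.3 and 83.2 against 356 and 109 FPKM. Areg, a ligand of the epidermal growth factor receptor, was listed at 177 and 205 against 878 and 282 FPKM, and Ndrg1 at 21.9 and 29.1 against 133 and 33.0 FPKM. Hbegf, a further ligand of that receptor, was at 42.5 and 23.7 against 101 and 40.9 FPKM, and its genotypes overlapped. The 3 genes below 0 were Cdkn1a, Nupr1 and Plaur, with log2 fold changes of -0.03, -0.02 and -0.15. Cdkn1a was at 210 and 303 against 304 and 200 FPKM, and Plaur was highest in 139. Lgals3 was highest in 140, at 311 and 884 against 656 and 573 FPKM. Sfn and Cldn4 stand in a further list each, so that these counts are not independent.

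**Figure D4:**
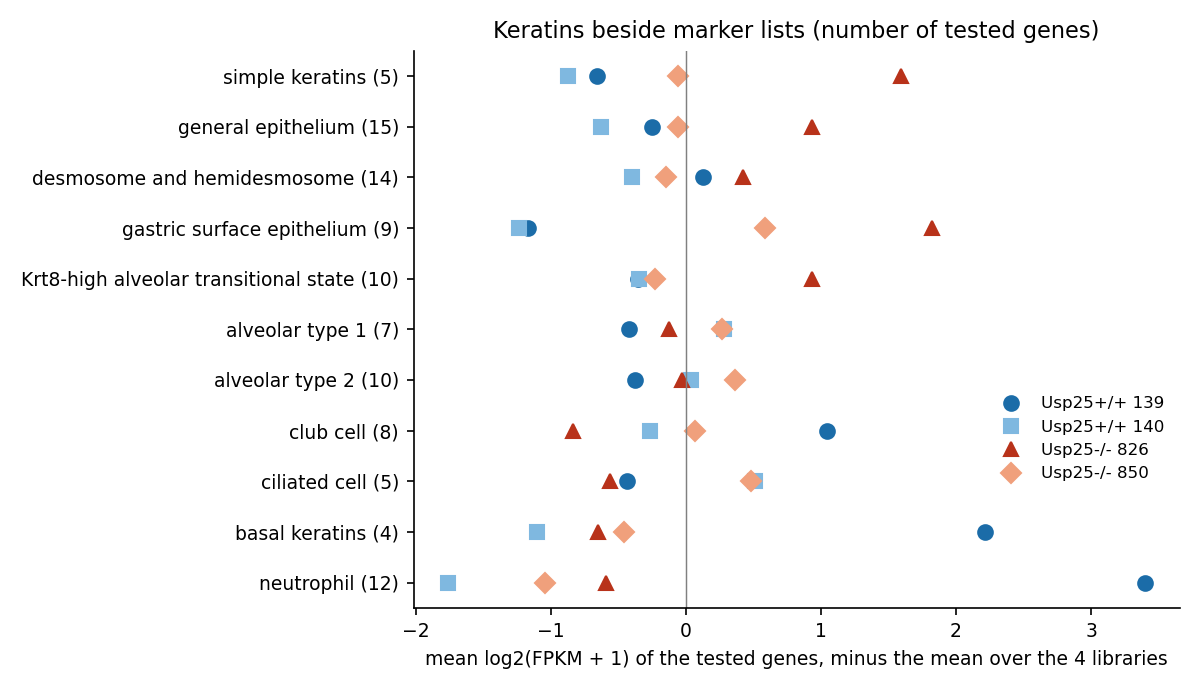
Mean log2(FPKM + 1) of the tested genes of each list in each library, centred on the mean of the 4 libraries, with the number of tested genes in brackets. The simple keratins, the general epithelial genes and the gastric surface genes place 826 highest, whereas the basal keratins and neutrophil genes place 139 far above the other 3 libraries.

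The basal keratins were highest in animal 139 and low in the rest, so that they separated that library and not the genotypes. Krt5 was listed at 19.0 FPKM in 139, 0.130 in 140, 0.191 in 826 and 0 in 850. Krt14, its partner, was listed at 25.6, 0.134, 1.33 and 4.05 FPKM in the same order. Krt14 in 850 thus stood beside a Krt5 listed at 0, and the 2 partners were not matched there. Krt17 was listed at 9.08, 0.188, 0 and 0.171 FPKM, and Krt15 at 2.22, 0.165, 1.24 and 0.770 FPKM. Summed, they came to 55.9, 0.618, 2.76 and 4.99 FPKM, or 6.06% of the FPKM of the 10 members in 139 and at most 0.371% in the other libraries.

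None of the 4 passed the test between the genotypes. The log2 fold changes were -2.12 (SE 1.33) for Krt5, -0.68 (SE 1.48) for Krt14, 0.04 (SE 0.58) for Krt15 and -1.68 (SE 1.02) for Krt17, with limma adjusted p of at least 0.960. The values of Krt5 and Krt17 were -4.20 and -3.22 without 140 and -3.62 and -3.31 with a pseudocount of 0.1. Krt5, Krt15 and Krt17 passed the filter through animal 139 and were under it without that library. Krt14 without 139 had a log2 fold change of 1.60, the opposite sign, since 140 then stood below both Usp25-/- libraries. With a pseudocount of 0.1 it was -0.01 over all 4 libraries. The basal sum differed by -1.02 on the log2 scale (two-sided exact permutation p = 1.00) and by 1.55 without 139. Krt17 was the 1 member that was lower in Usp25-/- without overlap, where 14.7% of tested genes were, though its values in 140 and 850 were nearly level.

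Other genes of basal cells were near the floor in most libraries. Trp63, the transcription factor that defines basal cells, was listed at 1.12 FPKM in 139, 0.0532 in 140, 0.277 in 826 and 0 in 850. Of the 10 listed basal cell genes, 2 were tested, 5 were under 1 FPKM in every library and Dlk2 was listed at 0 throughout. Of the 9 above 0 in any library, 5 were highest in 139, Trp63 among them, 2 in 826 and 2 in 850. Those 5 did not exceed 1.12 FPKM and were not tested, and 139 listed the most genes of any kind above 0. Of all tested genes, 29.9% were highest in 139. The 2 highest in 826 were the tested genes, Aqp3 and Fermt1, with Aqp3 at 9.19, 1.87, 24.7 and 1.41 FPKM. Bpifa1, a secreted protein of the upper airways from the club cell list, stood at 1653 FPKM in 139 and at 24.8 to 32.5 FPKM in the other libraries. The neutrophil list summed to 48275 FPKM in 139 and to between 872 and 2290 FPKM in the others. The part of upper airway tissue or of inflammation in the basal keratin level of 139 was not tested.

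Krt4, the squamous member, was at 0.774 FPKM in 139 and 0.313 in 826, was listed at 0 in 140 and 850, and was not tested. Its partner Krt13 was listed at 1.08, 0, 1.02 and 0 FPKM in 139, 140, 826 and 850. Both partners were thus above 0 in the same 2 libraries, 1 of each genotype. Those libraries also had the most genes of any kind above 0, at 20556 in 139 and 17242 in 826, against 15603 in 140 and 15805 in 850. Of 17 listed genes of squamous differentiation, 15 were found and 5 were tested, with 4 higher and 1 lower. The genotypes did not overlap in 3 higher genes (19.0% of all tested genes) and in 1 lower gene (14.7%). The lower gene was Cstb, the most abundant of the list, at 1249 and 1153 against 882 and 695 FPKM (log2 fold change -0.62). Sprr3 and Crnn, known from the oesophagus, did not exceed 0.255 FPKM. Ivl, an early component of the cornified envelope, was at 2.08 and 0.906 against 29.3 and 2.43 FPKM, and Tgm1, the enzyme that cross-links the envelope, at 11.9 and 8.89 against 38.7 and 18.0 FPKM. Neither passed the test, with log2 fold changes of 2.07 (SE 1.04) and 1.28 (SE 0.44). Without 826 these were 0.50 and 0.75.

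Beyond the members, 5 of the 42 other keratins averaged 1 FPKM or more, and 32 were under 1 FPKM in every library. Krt23, a type I keratin of simple epithelia, was listed at 22.0 and 16.6 against 89.8 and 37.1 FPKM, with a log2 fold change of 1.55 (SE 0.49) and a limma adjusted p of 0.960. Without 826 its log2 fold change was 0.92. It kept to between 0.0674 and 0.0971 of the Krt8 level. Krt80, a type II keratin, did not follow, at 5.12 and 13.0 against 5.87 and 8.93 FPKM. Krt6a, an injury-induced type II keratin, was listed at 11.5, 0.126, 2.94 and 0.994 FPKM and was highest in 139 like Krt5. Its log2 fold change was -0.42 with all libraries and 1.32 without 139. Krt79 and Krt83 stayed under 5 FPKM. The other keratins were above 0 in 32 of 42 cases in 139, 8 in 140, 20 in 826 and 6 in 850. Over all 24421 genes, 139 and 826 also listed the most above 0, at 20556 and 17242, against 15603 in 140 and 15805 in 850.

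The genes of the members lie in the 2 keratin clusters of the mouse genome, and simple and basal members are found in both. On mm9 (GENCODE vM1), the type I genes Krt20, Krt15, Krt19, Krt14 and Krt17 lie on the minus strand of chromosome 11 between 99289717 and 100122343. The type II genes Krt7, Krt5, Krt4 and Krt8 lie on chromosome 15 between 101241474 and 101834773, and Krt18, a type I gene, lies at the end of that cluster from 101858647 to 101862457, 23873 bases from Krt8. Krt19, at a mean of 335 FPKM over the libraries, is separated from Krt15, at 1.10 FPKM, by 4860 bases. Krt7 is followed after 1176 bases by Krt83, at 2.06 FPKM. Of the 100-base windows of the longest coding transcript, 2.39% in Krt5 occur in Krt6a and 2.88% in Krt14 occur in Krt16, while 0% of those of the other 8 members occur in another protein-coding gene. Reads of length 100 could thus be shared within those 2 pairs.

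Promoters of Krt8, Krt18 and Krt20 are shown from the simple keratins, all of which were higher in both Usp25-/- libraries, with that of Krt5 as the basal contrast. Of the other simple keratins, Krt19 had no promoter entry and the Krt7 window lay inside the annotated gene. Each runs from 250 bases before to 50 bases after the RefSeq start site, read 5′ to 3′ on the strand of the gene. The sequences are those of RefSeq on GRCm38.p6, and each matched mm9 exactly and at 1 place, which gave the coordinates. Capitals mark matches on either strand to the letters TATAAA, known as the TATA box. They would also mark the GC box, which was searched as GGGCGG, and the AP-1 element, which was searched as TGANTCA.
Krt8, chr15:101834724-101835023, minus strand: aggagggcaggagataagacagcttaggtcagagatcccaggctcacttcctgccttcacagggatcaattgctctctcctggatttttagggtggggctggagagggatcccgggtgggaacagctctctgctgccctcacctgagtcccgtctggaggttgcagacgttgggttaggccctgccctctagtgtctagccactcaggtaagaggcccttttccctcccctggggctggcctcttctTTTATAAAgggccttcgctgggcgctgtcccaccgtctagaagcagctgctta
Krt18, chr15:101858397-101858696, plus strand: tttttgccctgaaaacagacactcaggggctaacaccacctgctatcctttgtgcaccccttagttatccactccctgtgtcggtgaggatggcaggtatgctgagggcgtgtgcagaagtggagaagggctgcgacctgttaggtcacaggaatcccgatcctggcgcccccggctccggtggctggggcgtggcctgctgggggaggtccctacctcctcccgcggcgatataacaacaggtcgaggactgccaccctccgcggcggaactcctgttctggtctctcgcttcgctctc
Krt20, chr11:99299418-99299717, minus strand: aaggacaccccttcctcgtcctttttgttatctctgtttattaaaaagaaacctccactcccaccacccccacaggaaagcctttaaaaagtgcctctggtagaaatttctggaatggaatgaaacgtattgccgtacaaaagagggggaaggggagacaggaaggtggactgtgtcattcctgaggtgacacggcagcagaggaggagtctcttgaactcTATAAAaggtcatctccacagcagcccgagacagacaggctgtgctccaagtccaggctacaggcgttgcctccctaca
Krt5, chr15:101543287-101543586, minus strand: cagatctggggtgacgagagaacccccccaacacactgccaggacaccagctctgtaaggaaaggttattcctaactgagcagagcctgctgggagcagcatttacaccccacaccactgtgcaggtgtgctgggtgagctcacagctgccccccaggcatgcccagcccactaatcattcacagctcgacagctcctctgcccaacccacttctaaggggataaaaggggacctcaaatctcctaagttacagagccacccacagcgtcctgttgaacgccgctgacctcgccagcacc

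The partners Krt8 and Krt18 shared no match. Krt8 held TATAAA on both strands in an overlapping match, and Krt20 held it once, where 14.2% of 27025 promoters of the same length held it. The Krt8 matches began at -3 and -1 from the start site and so lay across it, while that of Krt20 began at -29. The GC box letters, present in 35.9% of promoters, and the AP-1 letters, present in 7.93%, were in none of the 4 windows. Nor were AACNNGTT (Grainyhead-like, 4.19%) or CAAGTG (NKX2-1, 13.5%). The Krt7 window, which was searched but not printed, held the GC box letters 4 times. These counts describe the letters of the windows and not the binding of a factor.

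The genes with a profile most like a member were found by the Euclidean distance between centred log2(FPKM + 1) values over the 4 libraries, among the genes, 7784 in all, that averaged 5 FPKM or more. For Krt8 they were Tmem54 (distance 0.144), Tmem252, Tpm2, Areg and Epha2 (0.212), and Krt7 came 6th, Krt18 18th and Krt19 21st. For Krt20 they included Ly6d, Il24, Ivl and Clcf1, at distances of 0.319 to 0.515. Ly6d was listed at 38.1 and 32.3 against 337 and 69.7 FPKM, with 826 highest and 850 second as in Krt20. For Krt5 they were Hcar2, Siglece, Il12a, Itgam and Serpina3f, each highest in 139, with Hcar2 at 953 FPKM there and at 48.3 to 60.0 FPKM elsewhere. Krt14 came only 208th for Krt5. The profile of Krt4 spanned 0.83 log2 units, and its nearest genes, among them Aff4, Esd, 3110043O21Rik and Rsrc2, spanned about as little.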

How the data were processed

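The authors deposited 1 table per library with 24421 gene symbols and a value each, taken here as FPKM because the submitters' processing notes name Cufflinks, beside cutadapt, TopHat2 2.1.1 and mm9. No header or label states the unit, the annotation or the filters. Per the labels' protocols the libraries were not strand-specific, so that antisense reads cannot be told apart. Groups follow the genotype labels, with 2 animals each. The members and lists were chosen with earlier results of these data known.

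Genotypes were compared on log2(FPKM + 1) with limma 3.58.1 in R 4.3.3 (eBayes with trend, two-sided) over the 12011 genes that averaged 1 FPKM or more, and p-values were adjusted after Benjamini and Hochberg (calls at 0.05). A fold change on this scale understates the change of low genes. The fit was tested on simulated data. Summed values were compared by exact permutation. Named were all members and other keratins with a mean of at least 1 FPKM. List genes were named if among the 4 of largest absolute fold change in a list or of defining role (not every one is shown). Some list genes that did not follow their list were named as well. So were the 5 genes most alike to Krt8, Krt5, Krt4 and Krt20. Some of the latter are not reported here. Of 52 keratin symbols, 50 matched GENCODE vM1. The RefSeq promoter table was searched for all members, with entries for Krt7, Krt8, Krt14, Krt18, Krt20 and Krt5. The Krt7 and Krt14 windows lay inside the annotated genes and were not printed. Alternatives were another pseudocount, other filters, 2 scalings, limma without trend, leaving out each library, and, chosen after seeing the data, leaving out animals 139 and 826 together and leaving out each library for the lists.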

Additional observations from a re-analysis of the deposited data

How the results depend on the processing

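No member passed the adjusted limma test in any setting run, and the simple keratins were higher in Usp25-/- in all of them. Leaving out 1 library gave 5 to 6 members higher without overlap, 0 to 4 lower without overlap (1 with all libraries), and a median log2 fold change of 0.51 to 1.97 over the tested members (1.27 with all, and 0.65 without the filter on low values, over all 10). The difference in log2 sums ranged from 0.70 to 2.1 for the simple, from -3.58 to 1.55 for the basal and from -0.63 to 0.20 for the squamous keratins. That relative to general epithelial genes ranged from 0.33 to 0.99. Basal and squamous sums turned to higher without 139, at 1.55 and 0.20. Single genes also turned, with Krt14 between -2.95 and 1.60 (1.60 without 139) and Krt15 between -0.70 (without 140) and 0.21, with -0.13 without 826. With a mean of at least 5 FPKM required, 0 members were lower without overlap. Without both 139 and 826, which leaves 1 library a genotype and no test, the basal sum turned to 1.89 and the simple keratins relative to general epithelial genes stood at 0.25. Causes other than the libraries left out were not tested. No paired analysis was possible because the labels give no pairing of animals between the genotypes. The depth of the libraries is unknown, so that values under 1 FPKM carry no counting error.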
